A study of Mus musculus with 4 samples.

Results

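Toll-like receptors (TLRs) are sensors of microbial molecules. In myeloid cells they start inflammatory transcription, and immature myeloid cells, among them myeloid-derived suppressor cells (MDSCs), carry several of them. TLR2 pairs with TLR1 or TLR6 at the cell surface to bind bacterial lipoproteins, TLR4 binds lipopolysaccharide (LPS) with help of the co-receptor CD14, and TLR7, TLR8, TLR9 and TLR13 bind nucleic acids in endosomes. All of these receptors signal through the adaptor MyD88, TLR4 also through a separate adaptor, TRIF. The expression of 8 receptor genes (*Tlr1*, *Tlr2*, *Tlr4*, *Tlr6*, *Tlr7*, *Tlr8*, *Tlr9* and *Tlr13*), *Cd14* and *Myd88* was followed here in *in vitro* MDSCs. These 10 genes were chosen by symbol from the 24346 genes of each table, and all 10 had enough reads to be tested.

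*In vitro* MDSCs are immature myeloid cells grown for 4 days from bone marrow (BM) of female C57BL/6J mice aged 6 to 8 weeks. Every culture received 40 ng/ml granulocyte-macrophage colony-stimulating factor (GM-CSF). In the Control group (n = 2) nothing else was added, and in the G-CSF group (n = 2) granulocyte colony-stimulating factor was present at 5 ng/ml. The study names the libraries biological replicates. The RNA came from whole cultures, and no sorting step is described for it, so the libraries hold a mixture of cells. Values are FPKM, reads scaled to transcript length and library size, so levels can be compared between genes. The libraries held an estimated 12450000 to 15700000 reads. Differences were tested with limma on log2(FPKM + 0.1) over 12055 genes, with Benjamini-Hochberg adjustment, and a gene passed at an adjusted p under 0.05. The pseudocount of 0.1 draws the fold change of low genes toward 0. An exact permutation test of 2 against 2 libraries cannot give a two-sided p below 0.333, so the p-values given here come from limma alone.

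The genes that mark myeloid cells were present. *Itgam*, which encodes CD11b, stood at 520 and 515 FPKM in Control, and at 395 and 416 FPKM with G-CSF. It passed as lower with G-CSF (log2 fold change -0.35, adjusted p = 0.00592 by limma). One label names liver as the source of the RNA, but the hepatocyte genes *Alb*, *Apoa1*, *Ttr* and *Cyp3a11* were listed at 0 in every library, and the fifth of the list, *Serpina1a*, was at 0.169 FPKM or less. Marker lists of several myeloid types differed between the groups. In these lists a gene fell or rose where it passed, as 11.3% and 12.4% of all genes tested did with G-CSF. The summed level of 7 macrophage markers was 189 and 221 FPKM in Control against 135 and 158 FPKM with G-CSF, and 4 of the 7 fell. For 8 dendritic cell markers the sums were 2651 and 2268 FPKM against 1502 and 1211 FPKM, and 3 of the 8 fell. Most of these sums came from *Cd74* and *H2-Ab1*, at 2016 and 474 of the 2651 FPKM in Control replicate 1. The 3 that fell were *Cd74*, *H2-Ab1* and *Itgax*, and *Flt3*, *Zbtb46*, *Ccr7*, *Xcr1* and *Clec9a* did not pass. The sums of 7 monocyte markers lay closer together, at 1459 and 1514 FPKM against 1338 and 1414 FPKM, with 1 gene of the 7 higher and 1 lower. Of the 9 neutrophil markers in the tables (sums of 66718 to 77100 FPKM in Control against 51543 to 51658 FPKM with G-CSF) 7 fell. Most of the neutrophil sums came from *S100a8* and *S100a9*, at 35613 and 31959 of the 77100 FPKM in Control replicate 1. Of 6 markers of neutrophil precursors (892 to 1031 FPKM in Control and 2167 to 2306 FPKM with G-CSF) 5 rose. The sums of 5 eosinophil markers were 261 to 339 FPKM and 162 to 208 FPKM (2 of the 3 tested fell), and those of 5 mast cell and basophil markers 83.2 to 84.2 FPKM and 54.4 to 58.3 FPKM (3 fell). The 6 erythroid and megakaryocyte markers summed to 32.4 to 36.3 FPKM over all 4 libraries. Plasmacytoid dendritic cell, B cell, and T and NK cell markers summed to at most 5.51 FPKM per list in any library, with *Ncr1* at 0. In RNA from a mixture, fewer cells of a type and less RNA per cell cannot be told apart. For cultures grown this way, the study reports by flow cytometry that G-CSF left the percentages of dendritic cells and macrophages unaffected. It also reports a larger proportion of monocytic MDSCs and a smaller one of polymorphonuclear MDSCs. Whether the sequenced cultures were among those measured is not stated, and the link of these proportions to the marker sums was not tested.

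*Tlr1* and *Tlr6* have to be read together, because their sequences are partly the same. The genes are neighbours on the minus strand of chromosome 5 of GRCm38 (mm10), *Tlr1* from 64924679 to 64933563 and *Tlr6* from 64952031 to 64960097, with 18467 bases between them. Their coding sequences were identical at 76.8% of 2344 aligned bases, against 60.5% for *Tlr1* and *Tlr2* and 59.2% for *Tlr7* and *Tlr8*. Between bases 1348 and 2085 of the *Tlr1* coding sequence lie 4 stretches of 119, 229, 208 and 80 identical bases. A read of 75 bases that falls wholly inside such a stretch fits both genes. Such windows made up 11.5% of the longest coding *Tlr1* transcript and 9.44% of that of *Tlr6*. For the other 8 genes the share of windows found in another gene was 0.0%. The first and second stretch are parted by a single base, shown here in capitals in the middle of a window as long as a read, from base 1430 of the coding sequence of *Tlr1* and from base 1469 of that of *Tlr6*. It is the only letter by which a read over this window can be placed.
*Tlr1*: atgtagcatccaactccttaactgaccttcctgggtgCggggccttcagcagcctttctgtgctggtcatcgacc
*Tlr6*: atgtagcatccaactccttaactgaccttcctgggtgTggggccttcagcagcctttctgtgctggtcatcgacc
The longest stretch follows directly after it and is shown once, since no letter differs between the genes.
*Tlr1* and *Tlr6*, bases 1468 to 1696 of the *Tlr1* coding sequence: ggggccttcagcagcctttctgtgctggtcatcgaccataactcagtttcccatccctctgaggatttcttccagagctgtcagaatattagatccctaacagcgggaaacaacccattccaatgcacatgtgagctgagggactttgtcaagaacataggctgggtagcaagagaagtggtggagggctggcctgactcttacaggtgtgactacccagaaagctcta

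The upstream sequences of the receptor genes were set beside each other as a description. As shown further on, 6 of the 8 receptors stood lower in both G-CSF libraries, as did 32.5% of all genes tested. RefSeq windows on GRCm38.p6 were at hand for 7 of the 10 genes, and *Tlr4*, *Tlr7* and *Cd14* had none. The 250 bases before each start site were searched on both strands for the box bound by PU.1, the lineage factor of myeloid cells (GAGGAA). The box was found upstream of *Tlr1*, *Tlr8*, *Tlr9* and *Tlr13*, in 4 of the 9 windows of these 7 genes, and in 23.3% of 32851 promoter windows of the same length. These windows are printed 5′ to 3′ up to the first base that GENCODE M21 annotates for the gene, with the box in capitals (in *Tlr8* it lies on the opposite strand and reads TTCCTC).
*Tlr1*, chr5:64933564-64933808, minus strand: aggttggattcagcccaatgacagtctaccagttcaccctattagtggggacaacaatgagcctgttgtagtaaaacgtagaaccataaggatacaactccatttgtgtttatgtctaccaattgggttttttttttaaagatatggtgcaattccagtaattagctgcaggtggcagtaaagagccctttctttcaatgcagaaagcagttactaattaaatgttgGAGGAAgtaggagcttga
*Tlr8*, chrX:167264330-167264579, minus strand: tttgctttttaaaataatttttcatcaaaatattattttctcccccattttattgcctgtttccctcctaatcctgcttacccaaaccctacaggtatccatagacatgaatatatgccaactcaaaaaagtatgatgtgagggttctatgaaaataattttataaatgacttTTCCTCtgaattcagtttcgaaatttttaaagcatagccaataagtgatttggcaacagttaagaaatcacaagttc
*Tlr9*, chr9:106222348-106222597, plus strand: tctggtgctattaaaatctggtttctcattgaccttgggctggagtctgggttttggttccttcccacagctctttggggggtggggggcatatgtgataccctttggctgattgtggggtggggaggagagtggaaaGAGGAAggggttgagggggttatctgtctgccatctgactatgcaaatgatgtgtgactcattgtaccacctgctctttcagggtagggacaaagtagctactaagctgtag
*Tlr13*, chrX:106143025-106143203, plus strand: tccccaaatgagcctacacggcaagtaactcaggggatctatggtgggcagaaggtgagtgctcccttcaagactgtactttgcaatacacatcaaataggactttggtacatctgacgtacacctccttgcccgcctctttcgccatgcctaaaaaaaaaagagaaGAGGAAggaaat
The box starts 23 bases before the start site in *Tlr1*, 77 in *Tlr8*, 112 in *Tlr9* and 83 in *Tlr13*. Of these genes, *Tlr1* stood higher in both G-CSF libraries, and *Tlr8*, *Tlr9* and *Tlr13* stood lower. The other motifs searched were those of STAT factors (TTCNNNGAA, in 7.02% of all windows), C/EBP (TTNNGNAA, 36.8%), the NF-kB site (45.8%), the interferon-stimulated response element (2.98%), an ETS-IRF composite element (2.3%) and AP-1 (TGANTCA, 6.75%). STAT letters were matched before the RefSeq start sites of *Myd88* and *Tlr8* and before 1 of the 2 of *Tlr1*. C/EBP letters were matched at *Tlr2*, *Tlr6* and *Tlr8*, and NF-kB letters at *Tlr2* and *Tlr6*. The interferon element was matched at *Myd88* and *Tlr6*, where the 2 matches overlap each other, AP-1 at *Tlr9* and the composite at none of the 7. The *Myd88* window and the *Tlr1* window with the STAT match lie inside the gene spans that GENCODE M21 annotates. So does the *Tlr6* window with the C/EBP and interferon matches. Some motifs overlap in their letters, and a match describes the sequence only.

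The genes differed widely in level, and the order was led by *Tlr2*. Over the 4 libraries, mean levels were 182.29 FPKM for *Tlr2*, 90.8 for *Myd88*, 75.2 for *Cd14*, 44.3 for *Tlr4* and 38.7 for *Tlr13*. They were 15.1 FPKM for *Tlr7*, 14.6 for *Tlr8*, 6.18 for *Tlr6*, 2.5 for *Tlr1* and 2.07 for *Tlr9*. *Tlr2* was thus among the more abundant transcripts of these cells, with 96.2% of the genes tested at or below its level, against 17.8% for *Tlr9*. Neighbours in this order were separated in all 4 libraries except for *Tlr7* and *Tlr8* and for *Tlr1* and *Tlr9*, which changed places in 1 library each. The ranges of *Tlr4* (40.1 to 49.35 FPKM) and *Tlr13* (32.8 to 43.9 FPKM) overlapped, although *Tlr4* was above *Tlr13* within every library. *Tlr2* made up 59.0% and 59.9% of the summed FPKM of the 8 receptors in Control and 58.7% and 60.8% with G-CSF. The sum itself was 317 and 346 FPKM in Control against 262 and 298 FPKM with G-CSF, so both G-CSF libraries were below both Control libraries.

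**Figure D1:**
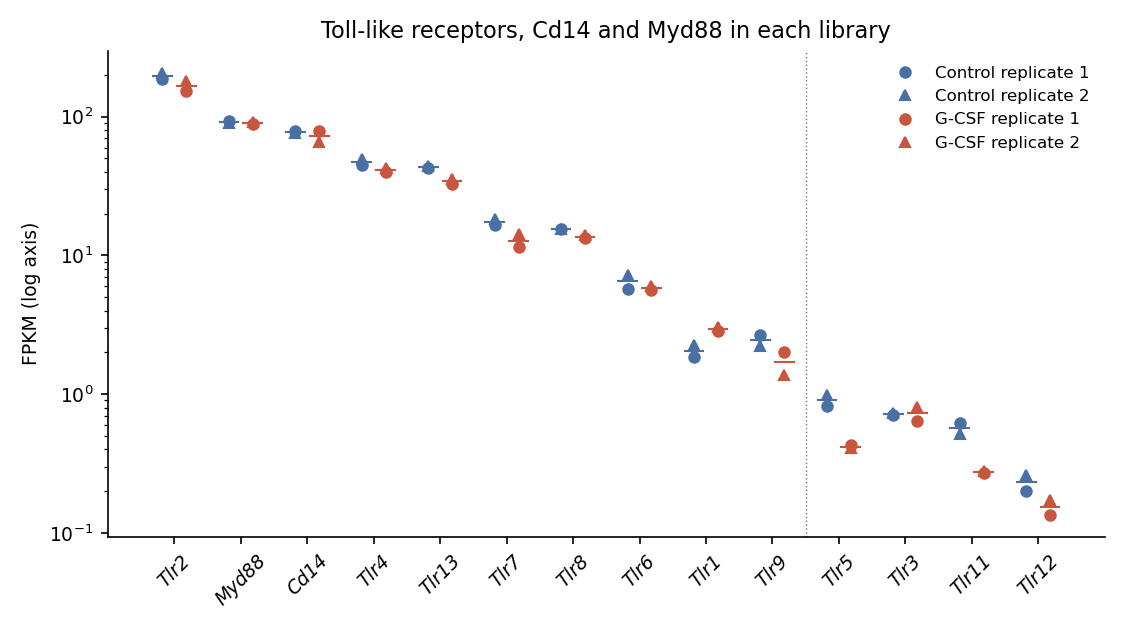
FPKM (log axis) of the 8 receptors, *Cd14* and *Myd88*, in the order of their mean level, and right of the dotted line *Tlr5*, *Tlr3*, *Tlr11* and *Tlr12*. Blue is Control and red G-CSF, circles are replicate 1, triangles replicate 2 and bars group means (n = 2). Levels run from 207 FPKM (*Tlr2*) to 0.135 FPKM (*Tlr12*), and the differences between genes are far larger than those between groups.

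The comparison of G-CSF with Control asked whether G-CSF alters the expression profile of *in vitro* MDSCs. Of the 10 genes, 2 passed the test, the endosomal receptors *Tlr7* and *Tlr13*, and both fell. Of all genes tested, 23.7% passed, 11.3% lower and 12.4% higher with G-CSF, so 2 of 10 is near the background. With limma voom on the estimated reads, 3 of the 10 passed (*Tlr1* in addition), against 27.7% of all genes. None of the 10 had a fold change over 2 together with an adjusted p under 0.05 by limma, where 1.41% of all genes did; at an unadjusted p under 0.05, 7 of the 10 differed (6 lower and 1 higher), against 38.6% of all genes (18.7% lower and 19.9% higher). The log2 fold change was below 0 in 9 of the 10 genes, with a median of -0.19, against 0.0 over all genes tested. The groups did not overlap in 7 of the 10 genes, and in 65.9% of all genes. In 6 genes both G-CSF values were below both Control values (32.5% of all genes), in *Tlr1* they were above (33.5% of all genes), and in *Tlr6*, *Cd14* and *Myd88* the groups overlapped.

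**Figure D2:**
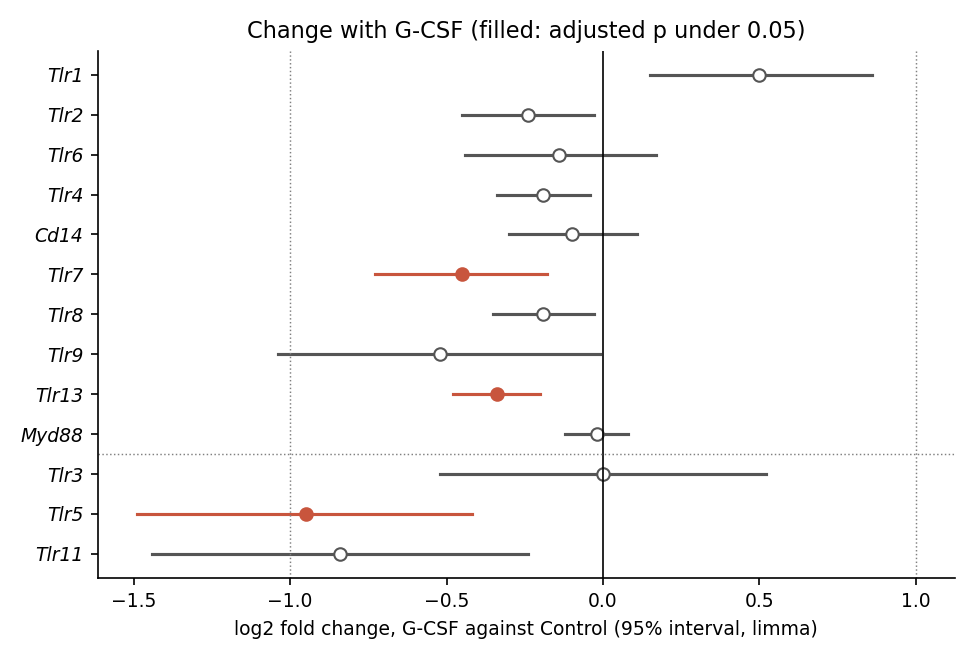
Log2 fold change of G-CSF against Control with its 95% interval from limma (n = 2 per group). Filled red points passed an adjusted p of 0.05, and the vertical dotted lines mark a fold change of 2. *Tlr7* (-0.45) and *Tlr13* (-0.34) passed among the 10 genes above the horizontal line, and *Tlr5* (-0.95) below it.

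The endosomal receptors followed here, *Tlr7*, *Tlr8*, *Tlr9* and *Tlr13*, all stood lower in both G-CSF libraries, as did 32.5% of all genes tested. This was not particular to them, since *Tlr2* and *Tlr4* at the cell surface also stood lower in both. *Tlr3*, a further nucleic acid receptor described below, had overlapping groups (log2 fold change 0.0). *Tlr13*, a receptor for bacterial ribosomal RNA that lies on the X chromosome (106143204 to 106160493, plus strand), was at 42.5 and 43.9 FPKM in Control, and at 32.8 and 35.6 FPKM with G-CSF. The groups did not overlap, and the gap between them was wider than that between replicates. It fell by 0.34 on the log2 scale (standard error 0.0585, 95% interval -0.48 to -0.20, adjusted p = 0.0119 by limma), 1.26-fold, on at least 1570 estimated reads per library. It passed under every alternative tried, also with each library left out in turn (log2 fold change -0.40 to -0.28, adjusted p 0.0134 to 0.0402).

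*Tlr7*, a receptor for single-stranded RNA, lies on the minus strand of the X chromosome from 167304929 to 167330558. It was at 16.5 and 18.4 FPKM in Control, and at 11.4 and 14.2 FPKM with G-CSF. Both G-CSF libraries were below both Control libraries, and the G-CSF libraries also differed from each other. *Tlr7* fell by 0.45 on the log2 scale (standard error 0.114, 95% interval -0.73 to -0.18, adjusted p = 0.0341 by limma), 1.37-fold. It no longer passed without Control replicate 2 (log2 fold change -0.37, adjusted p = 0.104), without G-CSF replicate 1 (-0.30, adjusted p = 0.0913) or without a filter on low values (adjusted p = 0.0888).

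*Tlr8* is the neighbour of *Tlr7* (167242696 to 167264329, minus strand, 40599 bases apart) and encodes a further RNA receptor. Its levels were 15.6 and 15.5 FPKM in Control against 13.3 and 13.97 FPKM with G-CSF. The groups did not overlap, but the difference was small and did not pass (log2 fold change -0.19, standard error 0.0658, 95% interval -0.35 to -0.03, adjusted p = 0.0838 by limma). The ratio of *Tlr7* to *Tlr8*, which a scaling of a library cannot alter, was 1.06 and 1.19 in Control against 0.862 and 1.015 with G-CSF. The ratio of *Tlr13* to *Tlr8* was 2.73 and 2.84 in Control against 2.47 and 2.55 with G-CSF. In both ratios the G-CSF libraries were below the Control libraries.

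*Tlr9*, the receptor for unmethylated CpG DNA (chromosome 9, 106222598 to 106226883, plus strand), had the lowest mean over the 4 libraries, although *Tlr1* was lower in Control replicate 1. It was at 2.675 and 2.22 FPKM in Control, and at 2.02 and 1.37 FPKM with G-CSF, on 117, 103, 82 and 70 estimated reads. Both G-CSF values were below both Control values, yet the G-CSF replicates differed by almost as much as the group means, and the log2 fold change of -0.52 did not pass (standard error 0.213, 95% interval -1.04 to -0.01, adjusted p = 0.121 by limma). It was -0.26 without G-CSF replicate 2 (adjusted p = 0.418) and -0.79 without G-CSF replicate 1 (adjusted p = 0.0546). Together, the 4 endosomal receptors summed to 77.3 and 79.9 FPKM in Control and to 59.5 and 65.1 FPKM with G-CSF, or 24.4% and 23.1% of all 8 receptors against 22.7% and 21.9%. The macrophage and dendritic cell marker sums given above were lower in the same libraries, and their part in the lower *Tlr7* and *Tlr13* was not tested. Plasmacytoid dendritic cells are known for *Tlr7* and *Tlr9*, and the sum of their 6 markers was 5.11 and 4.33 FPKM in Control against 4.34 and 3.67 FPKM with G-CSF, with overlapping groups. Of these markers *Tcf4* alone was at 2.37 and 2.24 FPKM against 2.88 and 2.67 FPKM, and the other 5 summed to 2.74 and 2.09 FPKM against 1.46 and 1.00 FPKM, lower in both G-CSF libraries. No marker of the 3 tested passed, and the part of these cells in the lower values was not tested.

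At the cell surface, *Tlr1*, whose product pairs with TLR2 to bind triacylated lipoproteins, was at 1.86 and 2.25 FPKM in Control, and at 2.87 and 3.025 FPKM with G-CSF, the only one of the 10 genes with both G-CSF values above both Control values. Its log2 fold change of 0.50 was just outside the threshold (standard error 0.147, 95% interval 0.15 to 0.86, adjusted p = 0.0519 by limma). Among the alternatives without a replicate block, it passed with a pseudocount of 1 FPKM (0.37, adjusted p = 0.0447), with at least 1 FPKM required in every library (adjusted p = 0.0458) and with limma voom (0.55, adjusted p = 0.0425), and in none of the 4 fits that leave out a library (adjusted p 0.0552 to 0.195).

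*Tlr6*, whose product takes part in binding diacylated lipoproteins, at 5.77 and 7.22 FPKM in Control against 5.67 and 6.04 FPKM with G-CSF, had overlapping groups. Its log2 fold change was -0.14 (95% interval -0.44 to 0.17, adjusted p = 0.467 by limma) and turned to 0.02 without Control replicate 2. Within each library, the ratio of *Tlr1* to *Tlr6* was 0.323 and 0.312 in Control against 0.506 and 0.5005 with G-CSF. Expressed as reads, *Tlr1* held 20.7% (95% exact binomial interval 16.5 to 25.4) and 20.3% (16.6 to 24.3) of the reads of both genes in Control and 29.2% (24.5 to 34.3) and 28.9% (24.8 to 33.3) with G-CSF. The intervals cover counting error only, on 338 to 463 estimated reads per library, and that of Control replicate 1 overlapped those of both G-CSF libraries. How the authors' tools placed reads from the identical stretches printed above is not stated, and the part of this placement in the *Tlr1* and *Tlr6* values was not tested.

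**Figure D3:**
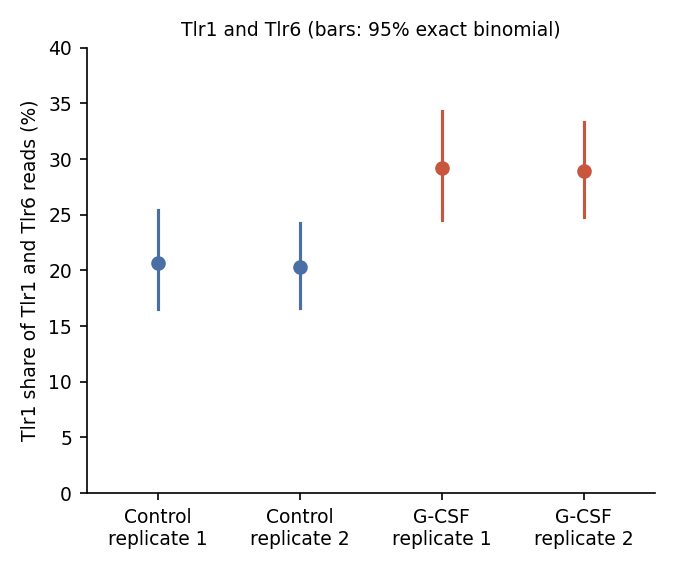
Share of *Tlr1* in the estimated reads of *Tlr1* and *Tlr6* (percent) in each library, with 95% exact binomial intervals for counting error. The Control libraries (blue) sit at 20.7% and 20.3% and the G-CSF libraries (red) at 29.2% and 28.9%.

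*Tlr2*, the shared partner of TLR1 and TLR6, lies on chromosome 3 (83836272 to 83841767, minus strand). It was at 187 and 207 FPKM in Control, and at 154 and 181 FPKM with G-CSF. The groups did not overlap, but Control replicate 1 and G-CSF replicate 2 were close, and the log2 fold change of -0.24 did not pass (standard error 0.0863, 95% interval -0.45 to -0.03, adjusted p = 0.0901 by limma). The value rested on single libraries. It was -0.36 and passed without G-CSF replicate 2 (adjusted p = 0.024), but was -0.12 without G-CSF replicate 1 (adjusted p = 0.314) and -0.17 without Control replicate 2 (adjusted p = 0.273). *Tlr2* outnumbered *Tlr1* by 100.4 and 92.2 to 1 in Control and by 53.6 and 59.8 to 1 with G-CSF. Its excess over *Tlr6* was 32.4 and 28.7 to 1 against 27.1 and 29.9 to 1, with overlapping groups.

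Among the genes of LPS sensing, *Tlr4* (chromosome 4, 66827584 to 66930284, plus strand) was at 45.2 and 49.35 FPKM in Control, and at 40.1 and 42.7 FPKM with G-CSF. Both G-CSF values were lower, with a log2 fold change of -0.19 that did not pass (standard error 0.0629, 95% interval -0.34 to -0.04, adjusted p = 0.071 by limma). *Cd14* (chromosome 18, 36725067 to 36726798, minus strand) was at 79.2 and 76.1 FPKM in Control, and at 79.4 and 66.2 FPKM with G-CSF. The highest and the lowest value were both G-CSF libraries, and the log2 fold change was -0.10 (95% interval -0.30 to 0.11, adjusted p = 0.432 by limma), or 0.03 without G-CSF replicate 2. The ratio of *Cd14* to *Tlr4* was 1.75 and 1.54 in Control against 1.98 and 1.55 with G-CSF and overlapped between groups. *Ly96*, which encodes MD-2, the protein that holds LPS on TLR4, was at 15.5 and 10.5 FPKM in Control, and at 8.95 and 9.85 FPKM with G-CSF (log2 fold change -0.44, adjusted p = 0.112 by limma). Without Control replicate 2 the value was -0.72 and passed (adjusted p = 0.0107), and without Control replicate 1 it was -0.16 (adjusted p = 0.369).

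*Myd88*, the adaptor used by all 8 receptors, had the smallest difference of the 10 genes. It was at 92.7 and 90.2 FPKM in Control, and at 89.2 and 91.0 FPKM with G-CSF, and the groups overlapped. Its log2 fold change of -0.02 (standard error 0.043) had a 95% interval of -0.12 to 0.08 (adjusted p = 0.754 by limma). *Myd88* (chromosome 9, 119335934 to 119341411, minus strand) overlaps the annotated spans of *Slc22a14* on the same strand and *Acaa1a* on the opposite strand, and whether the authors' counting used the strand is not stated. The ratio of *Myd88* to *Tlr4* was 2.05 and 1.83 in Control against 2.23 and 2.13 with G-CSF, higher in both G-CSF libraries.

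The remaining mouse receptors were near the lower end of the values. *Tlr5*, the flagellin receptor, was at 0.823 and 0.989 FPKM in Control, and at 0.429 and 0.406 FPKM with G-CSF, on 40, 50, 19 and 23 estimated reads. It fell by 0.95 on the log2 scale, the largest difference among all the receptors tested (standard error 0.221, adjusted p = 0.0268 by limma). In the fits that leave out a library the log2 fold change lay between -1.07 and -0.84, and none passed (adjusted p 0.0679 without Control replicate 1, 0.12 without Control replicate 2, 0.074 without G-CSF replicate 1 and 0.0801 without G-CSF replicate 2), nor did it without a filter on low values (adjusted p = 0.0651). With a pseudocount of 1 FPKM its log2 fold change was -0.43, with the test still passed. *Tlr11*, a receptor for profilin of protozoa and flagellin, was at 0.622 and 0.517 FPKM against 0.268 and 0.277 FPKM, on 10 to 25 reads (log2 fold change -0.84, adjusted p = 0.0548 by limma). *Tlr3*, the receptor for double-stranded RNA and the one that does not use MyD88, was at 0.706 and 0.736 FPKM against 0.643 and 0.808 FPKM (log2 fold change 0.0, adjusted p = 0.998 by limma). *Tlr12*, with 5 to 11 reads per library, was below the filter.

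Beside the 10 genes, 111 further genes of TLR signalling and innate sensing were followed in lists, and 105 of them were tested. *Tlr3*, *Tlr5*, *Tlr11* and *Tlr12*, described above, are among the 111, and *Tlr5* is among those that fell. With G-CSF 26 fell and 6 rose, and the median log2 fold change was -0.14. As shares, 30.5% of these genes passed, against 23.7% of all genes tested, and no list was tested as a whole. Of 6 co-receptors and accessory proteins, 1 rose and 2 fell. *Lbp*, which encodes the LPS-binding protein that hands LPS to CD14, rose from 11.0 ± 1.68 to 19.7 ± 0.174 FPKM (SD, n = 2 each), or by 0.84 on the log2 scale (adjusted p = 0.00561 by limma). *Cd180*, which encodes a TLR4-like protein, and *Ly86*, which encodes MD-1, its partner, fell by 0.25 and 0.73 on the log2 scale (adjusted p = 0.0294 and 0.0364 by limma). Neither held throughout. *Cd180* did not pass with any of the 4 libraries left out (adjusted p 0.125 and 0.069 without Control replicates 1 and 2, 0.113 and 0.0584 without G-CSF replicates 1 and 2), nor without a filter on low values (0.0529). *Ly86* did not pass without Control replicate 1 (0.106) or G-CSF replicate 2 (0.0716), nor without the filter (0.103).

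In the list of chaperones and endosomal traffic, 3 of 13 genes rose and 2 fell, so that 38.5% passed, against 23.7% of all genes tested. The chaperone gene *Hsp90b1*, whose product gp96 folds most TLRs, rose from 427 ± 1.76 to 527 ± 12.6 FPKM (log2 fold change 0.30, adjusted p = 0.00767), and the cargo receptor gene *Lman1* rose by 0.31 (adjusted p = 0.0102, both by limma). *Ctss* and *Lgmn*, which encode the endosomal proteases cathepsin S and legumain that can cleave endosomal TLRs, fell by 0.41 and 0.30 on the log2 scale (adjusted p = 0.00508 and 0.00993 by limma). *Unc93b1*, which encodes the escort of endosomal TLRs, was at 145 ± 5.44 FPKM in Control against 134 ± 9.98 FPKM with G-CSF (log2 fold change -0.12, adjusted p = 0.205 by limma). These genes also have wider roles in protein folding and lysosomes.

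Downstream of the receptors, of 7 TIR adaptor and Myddosome genes tested, 1 passed (14.3%, against 23.7% of all genes tested). This was *Irak2*, which encodes a kinase of the MyD88 complex and fell from 25.3 ± 0.0361 to 19.04 ± 0.941 FPKM (SD, n = 2 each, adjusted p = 0.0082 by limma). *Tirap*, which encodes the bridging adaptor of TLR2 and TLR4, was at 12.1 ± 0.147 and 12.2 ± 0.282 FPKM, and *Irak4*, the kinase gene at the head of the complex, at 15.4 ± 0.615 and 14.7 ± 0.887 FPKM. Of 24 genes that carry the signal to NF-kB and interferon regulatory factors, 6 fell and 1 rose. As a share, 29.2% of them passed, against 23.7% of all genes tested. The 4 with the smallest p were *Irf5* (log2 fold change -0.38, adjusted p = 0.0042), *Relb* (-0.65, adjusted p = 0.00508), *Irf7* (-0.68, adjusted p = 0.0077) and *Nfkb2* (-0.40, adjusted p = 0.0112), all transcription factors that act after TLR signals (limma).

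Of 15 inhibitors of TLR signals, 7 fell and 0 rose by limma, so that 46.7% passed, against 23.7% of all genes tested (11.3% lower). The counts at an unadjusted p under 0.05 were also 7 and 0, where 18.7% of all genes were lower and 19.9% higher. Among the 7 that fell were *Nfkbia* and *Nfkbie*, inhibitors of NF-kB (log2 fold changes -0.37 and -0.51, adjusted p = 0.0129 and 0.00661 by limma). *Tnfaip3*, which encodes the deubiquitinase A20, fell too (-0.44, adjusted p = 0.011 by limma). So did *Lgals3*, which encodes galectin-3, a protein abundant in macrophages with many other roles (-0.44, adjusted p = 0.0047 by limma). *Nfkbia*, *Nfkbie* and *Tnfaip3* are themselves induced by NF-kB. Of 21 response genes tested, 4 fell and 1 rose, so that 23.8% passed, against 23.7% of all genes tested. Their median log2 fold change was -0.30, or -0.16 without G-CSF replicate 1. *Icam1* (-0.29, adjusted p = 0.01) and *Zfp36* (-0.40, adjusted p = 0.011) fell, and *Nos2* rose on few reads (5 and 1 in Control, 55 and 41 with G-CSF, log2 fold change 2.64, adjusted p = 0.0077, by limma). The size of this value depended on the pseudocount, with 0.82 at 1 FPKM and 3.94 at 0.01 FPKM, and it passed at both. *Tnf* was at 44.6 and 46.0 FPKM in Control, and at 31.8 and 40.6 FPKM with G-CSF and did not pass (log2 fold change -0.33, adjusted p = 0.0706 by limma). The value was -0.51 and passed without G-CSF replicate 2 (adjusted p = 0.00804), and was -0.16 without G-CSF replicate 1 (adjusted p = 0.159). Of 18 other innate sensors, 4 fell and 0 rose (7 and 0 at an unadjusted p under 0.05). The share that passed, 22.2%, is near the 23.7% of all genes tested. Among the 4 was *Clec7a*, the gene of the beta-glucan receptor dectin-1 (log2 fold change -0.44, adjusted p = 0.00456 by limma). Another was *Fpr2*, a formyl peptide receptor gene (-0.66, adjusted p = 0.00906 by limma). The macrophage, dendritic cell and neutrophil marker sums were lower in the same libraries, and their part in the pathway genes that fell was not tested.

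**Figure D4:**
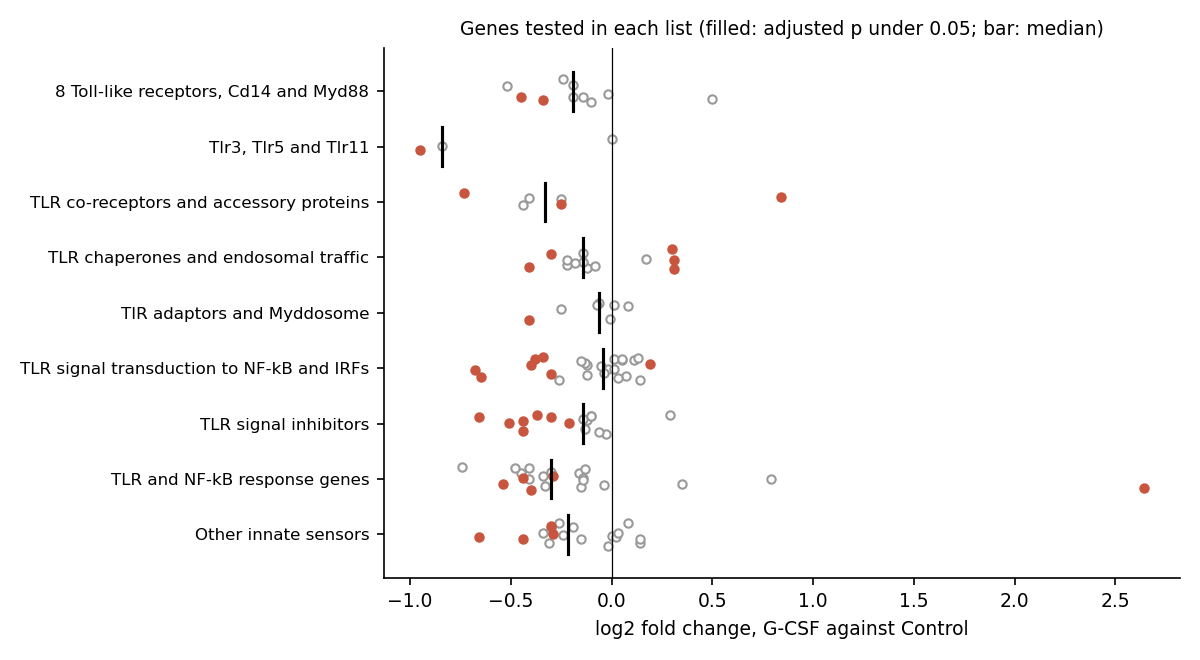
Log2 fold change of G-CSF against Control for each gene tested, by list, with 1 point per gene and a bar at the median of the list. Filled red points passed an adjusted p of 0.05 (limma). The 10 genes described first have a median of -0.19, and 26 of the 32 passing genes of the lists below them lie left of 0.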

How the data were processed

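RNA-seq was performed on 4 libraries of *in vitro* MDSCs, 2 Control and 2 G-CSF, grouped and numbered by their labels. Per the labels, stranded mRNA libraries were prepared with a TruSeq kit, and the study sequenced them to 75 bases from a single end. The submitters' processing notes name TopHat2 2.0.13, Bowtie2 2.2.3, SAMtools 0.1.19, Cufflinks 2.2.1 and the build mm10. The authors deposited a table per library with values taken here as FPKM, a unit that Cufflinks gives. The tables name no unit, and the annotation and the settings are not given in the sources used here.

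Reads were estimated from the smallest steps of the FPKM values, with transcript lengths from GENCODE M21 (GRCm38) shortened by 210 bases. By this estimate 67.2% of 1858 low values were whole to within 0.05 reads. Chance gives 10% for a depth fixed in advance. The depths and the shortening were chosen to make this share highest, so it is no independent check of the estimate. Lengths were found for 23957 of 24346 genes. Testing was limited to genes over 300 bases that reached 10 estimated reads in at least 2 libraries and 15 in total, and was done with limma 3.58.1 (R 4.3.3, eBayes with trend, two-sided, no replicate block) on log2(FPKM + 0.1). The fit was tested on simulated libraries with changes larger than those of the 10 genes, so changes of their size were not covered. The 10 genes, the lists and the tests were chosen with earlier results of these data known. The genes named were the 10, the other TLR genes, and per pathway list at most 4 of those with the smallest p, *Unc93b1*, *Ly96*, *Tirap*, *Irak4* and *Tnf* being named after their values were seen, like the hepatocyte and CD11b markers. Sequences came from RefSeq (promoters) and GENCODE (transcripts) and were aligned with biopython 1.88. As alternatives, libraries were scaled by the upper quartile or by median ratios, and the fit was repeated with pseudocounts of 1 and 0.01 FPKM, other filters, limma voom on estimated reads, a replicate block, and without each library.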

Additional observations from a re-analysis of the deposited data

How the results depend on the processing

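The 10 genes and the lists were refitted under 12 alternatives. Genes with an adjusted p under 0.05 and a fold change over 2 numbered 170, 56 with a pseudocount of 1 FPKM, 75 with at least 1 FPKM required in every library, and 149 to 186 with a library left out. Genes with an adjusted p under 0.05 numbered 2858, 1626 without a filter, where more genes with few reads are tested, and 1484 to 1913 with a library left out, where fewer samples are fitted and the group left with 1 library is assumed to vary like the other. Of the 10 genes, 2 passed, 1 (*Tlr13*) without a filter and 1 to 3 with a library left out. The replicate block brought the count of the 10 genes to 6 (*Tlr7* and *Tlr13*, and with adjusted p = 0.0278, 0.0046, 0.0182 and 0.0346 *Tlr1*, *Tlr2*, *Tlr4* and *Tlr9*), against 32.8% of all genes, and that of the pathway genes from 32 to 52. The replicate numbers are not known to pair the cultures: deviations from the group means correlated between same-numbered libraries with r = 0.229 across genes, which with 2 pairs does not settle it. Among the genes named in the text and refitted, those whose direction turned were *Tlr6* (-0.30 to 0.02 with a library left out, 0.02 without Control replicate 2), *Cd14* (-0.23 to 0.03, 0.03 without G-CSF replicate 2), *Tlr3* (-0.02 with upper-quartile scaling, -0.00 with median-ratio scaling, and -0.14 to 0.15 with a library left out) and *Tirap* (-0.01 with upper-quartile scaling, and -0.02 to 0.03 with a library left out). Scaling moved the median of all genes by at most 0.02 on the log2 scale. The cause of these changes was not tested. Depth limits *Tlr12*, *Tlr11*, *Tlr5*, *Tlr3*, *Tlr9* and *Tlr1* most among the receptors, with 5 to 134 reads per library.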
